A study of Mus musculus with 3 samples.

Results

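Sodium pump subunits and carriers of sodium, protons, calcium, chloride, bicarbonate, sulfate and phosphate were examined in a pool of mouse glomerular cells. The 60 genes were all protein-coding genes whose symbol begins with Atp1a or Atp1b and a number, or with Slc4a, Slc8a, Slc9a, Slc12a, Slc20a, Slc24a or Slc26a and a number, of 21226 protein-coding genes in the table. Of these, 57 were counted as pumps or carriers by gene family, without regard to whether each is known to transport. The other 3 carry a carrier's name without being one: Slc9a3r1 and Slc9a3r2 are scaffold proteins that bind sodium-proton exchangers, and Slc4a1ap encodes a protein named for its link to the anion exchanger Slc4a1.

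A male C57BL/6 mouse, wild type and 8 weeks old, gave the glomeruli, the capillary tufts in which the kidney filters blood, and all libraries derive from this 1 animal. Single cells were captured on a Fluidigm C1 chip, and qPCR of marker genes gave each well a cell type. The cDNA of 15 mesangial cells, the contractile cells that hold the capillaries together, and of 15 endothelial cells, which line them, was pooled and split into 3 aliquots, each made into a library. There is 1 group and no comparison of conditions, and every SD (n = 3) covers library making and sequencing only, not mice or cells. Since the cells were pooled, the cell type that made a transcript cannot be told apart, nor can few cells with much RNA from many cells with little.

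The sodium pump exchanges intracellular sodium for extracellular potassium at the cost of ATP, and its gradients drive the other carriers. An alpha subunit does the transport and a beta subunit brings it to the membrane. Sodium-proton exchangers and bicarbonate carriers set cell pH, sodium-calcium exchangers remove calcium, and the Slc12 family moves chloride with sodium or potassium and so sets cell volume and chloride. In the kidney, several relatives of these genes are known as the apical transporters of single nephron segments.

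Libraries held 9141422, 10427635 and 10976563 reads, of which the 60 genes took at least 27225, 31101 and 32599. These read numbers were recovered from the deposited values, as described below, and those of some genes are minimum values. Values are FPKM, reads per kilobase of gene and per 1000000 reads. Among markers fixed as lists, 7 of 7 mesangial genes (summed level 8601 to 9044 FPKM over the aliquots) and 7 of 7 endothelial genes (2194 to 2250 FPKM) reached 1 FPKM in every aliquot. So did 6 of 6 podocyte genes (275 to 291 FPKM) and 4 of 5 smooth muscle and renin cell genes (148 to 161 FPKM), beside 36.5% of all protein-coding genes. The part of podocytes and of smooth muscle and renin cells in the values below was not tested. All 9 nephron tubule genes, among them Lrp2, Umod and Aqp2, were listed at 0, as were 4 erythroid and 5 leukocyte genes. Of all protein-coding genes 54.5% were listed at 0 too. Zeros need care: 3 genes of general cell function, Mrps22, Cox20 and Srsf4, picked with their values known, stood at 0 in each aliquot too, so a gene is said here to be listed at 0 and not to be absent.

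A gene was called detected when it reached 1 FPKM in each of the 3 aliquots. By that rule 17 of the 60 genes were detected (28.3%), and 14 of the 57 pumps and carriers (24.6%). Among all protein-coding genes 36.5% were detected, and among 316 other Slc genes 25.9%. A further 9 genes were above 0 without reaching the limit, and 34 (56.7%) were listed at 0 in every aliquot, beside 54.5% of all protein-coding genes and 60.8% of the other Slc genes. Detected members had a median of 12.4 FPKM, against 20.97 FPKM for the 7757 detected protein-coding genes, and 5 of the 17 lay above the latter value. The chart of role groups shows that 11 of the 15 groups held at least 1 detected gene.

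**Figure D1:**
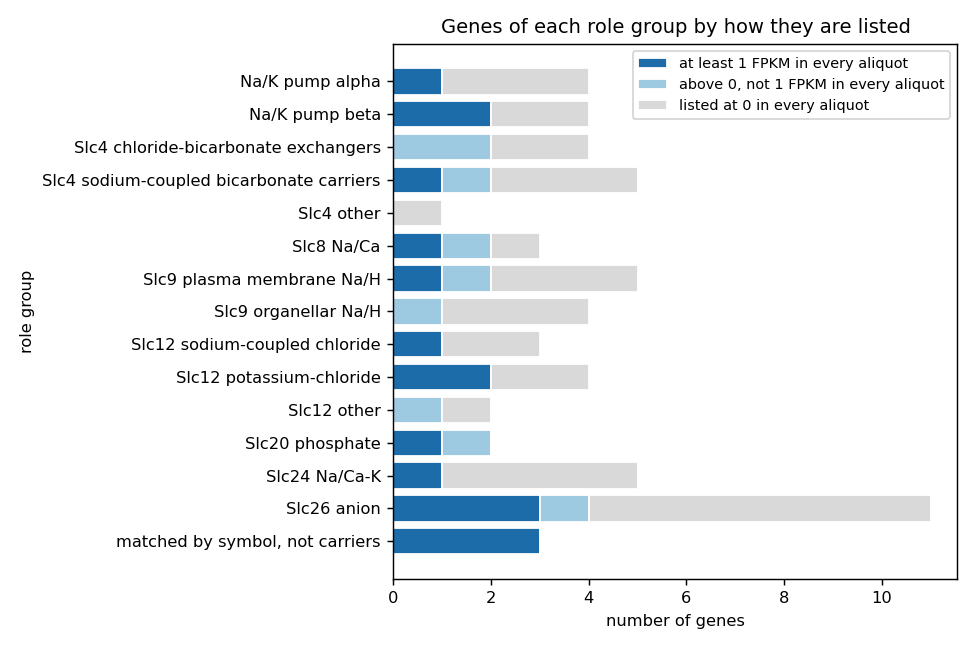
Number of genes (horizontal axis) in each of 15 role groups (vertical axis), split into detected genes (dark blue), genes above 0 that did not reach 1 FPKM in every aliquot (light blue) and genes listed at 0 (grey). The Slc4 chloride-bicarbonate exchangers, the organellar Slc9 exchangers and the other Slc4 and Slc12 genes hold no dark blue, and the Slc26 group has the most grey, 7 of 11 genes.

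Among the 8 genes of the sodium pump families 3 were detected, 2 of them beta subunits, and 5 were listed at 0. Of all protein-coding genes 36.5% were detected and 54.5% were listed at 0. The detected beta subunits were not the one that kidney tubules are known for. Atp1b2 (ENSMUSG00000041329, chromosome 11, 69599736 to 69605942, minus strand), first described in glia, had 176, 174 and 182 FPKM, a mean of 177 ± 3.99 FPKM. Atp1b3 (ENSMUSG00000032412, chromosome 9, 96332655 to 96364442, minus strand), which is widely expressed, had 72.8, 74.6 and 70.9 FPKM, a mean of 72.8 ± 1.82 FPKM. The values of these genes did not overlap, and the log2 ratio of Atp1b2 to Atp1b3 was 1.27 ± 0.067, computed with 1 FPKM added to each value. Atp1b1, the main beta subunit of kidney epithelium, was listed at 0 in every aliquot, and so was Atp1b4. Of the 3081 exon bases of Atp1b1, 575 are shared with Nme7 on the opposite strand, which had 45.2 ± 2.40 FPKM.

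The Slc12 family held the most abundant carrier of the whole set. Slc12a2, which encodes the sodium-potassium-chloride cotransporter NKCC1 that loads cells with chloride, had 296, 296 and 290.1 FPKM, with 17624, 20108 and 20762 reads behind these values. At 294 ± 3.25 FPKM it took rank 314 among the detected protein-coding genes and made up 41.3% ± 0.561 of the summed FPKM of the 57 pumps and carriers. This share depends on the gene lengths behind the FPKM, which its SD does not cover. Its tubule relatives were both listed at 0: Slc12a1, the NKCC2 cotransporter of the thick ascending limb, and Slc12a3, the NCC cotransporter of the distal convoluted tubule.

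Potassium-chloride cotransporters, which let chloride out of cells and counter NKCC1, included Slc12a4 among the detected genes. Slc12a4 (KCC1, chromosome 8, 105943590 to 105966097, minus strand) had 18.0, 20.1 and 21.4 FPKM, a mean of 19.8 ± 1.69. The log2 ratio of Slc12a2 to Slc12a4 was 3.83 ± 0.131, with every aliquot of the first above every aliquot of the second. It was 4.79 when both genes were scaled to their longest annotated transcript. That scaled ratio may be too high, because the length behind Slc12a4 may be a multiple of the one used. The neuronal Slc12a5 (KCC2) and Slc12a7 (KCC4) were listed at 0.

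Of the last Slc12 genes, Slc12a8 was listed at 0 and Slc12a9 lay at the limit. Slc12a9, an orphan relative of the family, had 0.925, 1.12 and 1.01 FPKM from 13, 18 and 17 reads. With aliquot 1 left out it would be detected.

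**Figure D2:**
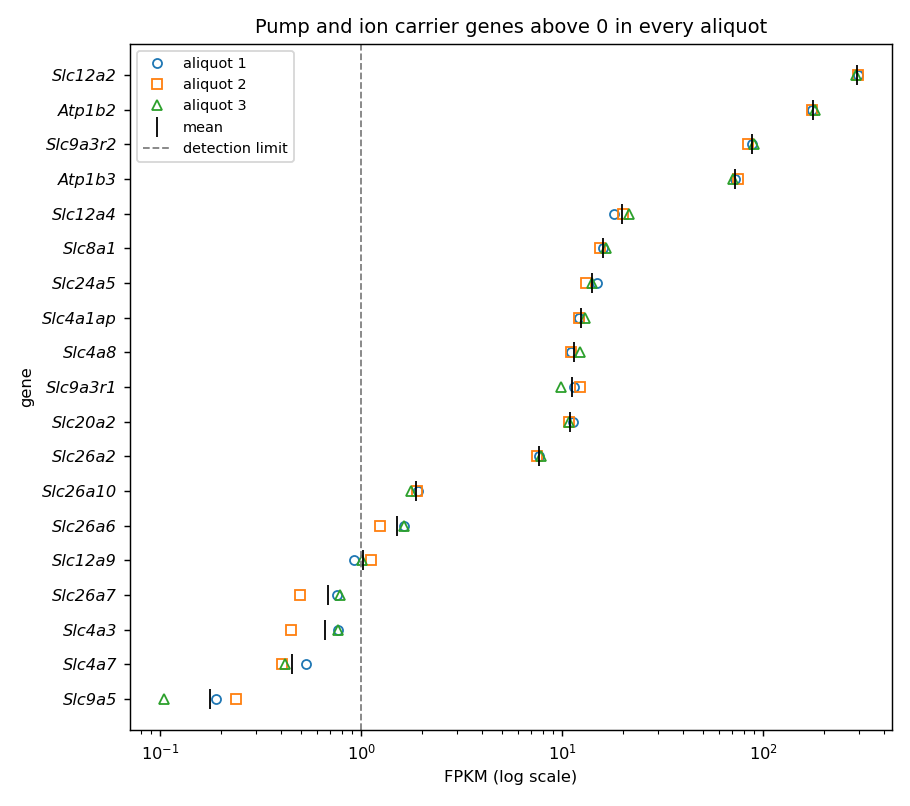
FPKM (log axis) of 19 of the 23 genes above 0 in every aliquot, 1 symbol per aliquot, a vertical tick for the mean and a dashed line at 1 FPKM. The aliquots lie close together at high levels, as for Slc12a2 between 290.1 and 296 FPKM, and spread at low levels, as for Slc26a6 between 1.24 and 1.64 FPKM.

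Of 9 sodium-proton exchanger genes 1 was detected, beside 25.9% of the other Slc genes and 36.5% of all protein-coding genes. This difference was not tested. A further 2 exchanger genes were under the limit and 6 were listed at 0. Among those under the limit, Slc9a5 had 0.189, 0.239 and 0.105 FPKM, from at least 9, 13 and 6 reads. The coefficient of variation of this gene was 38.2%, beside 32.8% from counting error at these read numbers. Its read numbers are minimum values because the length they imply matches neither its mean nor its longest transcript, which holds for Slc4a2 too.

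Those listed at 0 included Slc9a3 (NHE3), the main apical exchanger of the proximal tubule, and Slc9a2 and Slc9a4 of epithelia. The scaffolds that anchor NHE3 in epithelia were both detected. Slc9a3r2 had 88.2, 84.1 and 90.3 FPKM, a mean of 87.5 ± 3.14, and Slc9a3r1 had 11.5, 12.3 and 9.89 FPKM, a mean of 11.2 ± 1.20. The aliquots of these genes did not overlap, and the log2 ratio of Slc9a3r1 to Slc9a3r2 was -2.86 ± 0.194.

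The Slc4 family, which holds the bicarbonate carriers, had 1 detected gene of 10. The share was 25.9% among the other Slc genes and 36.5% among all protein-coding genes, and the difference was not tested. Slc4a8 (chromosome 15, 100761747 to 100823968, plus strand), a sodium-driven chloride-bicarbonate exchanger best known from neurons, had 11.02, 11.08 and 12.3 FPKM, a mean of 11.5 ± 0.741. The electroneutral cotransporter Slc4a7 (NBCn1), known from smooth muscle, had 0.533, 0.402 and 0.419 FPKM. Among the anion exchangers, Slc4a3 had 0.764, 0.446 and 0.763 FPKM, while Slc4a2, the widespread member, had 0, 0.0715 and 0.136 FPKM, from at least 1 read in aliquot 2 and at least 2 in aliquot 3. The erythrocyte and intercalated cell exchanger Slc4a1 and the proximal tubule cotransporter Slc4a4 were listed at 0, as were Slc4a5, Slc4a9, Slc4a10 and Slc4a11. Slc4a1ap, named for its link to Slc4a1, had 12.1, 12.2 and 13.0 FPKM.

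Among sodium-calcium exchangers, 1 gene each of the Slc8 and Slc24 families was detected. Slc8a1 (NCX1, chromosome 17, 81373105 to 81738377, minus strand), the exchanger of heart and smooth muscle, had 15.9, 15.4 and 16.6 FPKM, a mean of 15.98 ± 0.575. Slc8a3 rested on 1 read in aliquot 3, and the neuronal Slc8a2 was listed at 0. The level of Slc8a1 depends on its length more than that of the other genes drawn in the plot of levels by gene length: the deposited values imply 2901 bases or a multiple, while the longest annotated transcript has 18464. Scaled to the latter the mean would be 2.51 FPKM, or a multiple of it.

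Of the potassium-dependent exchangers, Slc24a1, Slc24a2, Slc24a3 and Slc24a4 were listed at 0 and Slc24a5 was not. Slc24a5 (chromosome 2, 125068124 to 125088677, plus strand), known for its role in the pigment organelles of melanocytes, had 15.0, 13.2 and 14.1 FPKM, a mean of 14.07 ± 0.875. Its position bears on this value. Of its 2330 exon bases, 921 overlap exons of Myef2 on the opposite strand, and Myef2 had 42.9 ± 2.30 FPKM. Whether counting used strand is not given in the sources used here, so reads of the pair on the shared bases cannot be told apart.

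Phosphate uptake showed a single detected carrier. Slc20a2 (PiT2, chromosome 8, 22476788 to 22569612, plus strand) had 11.3, 10.9 and 10.8 FPKM, a mean of 10.98 ± 0.255. Its paralog Slc20a1 (PiT1) rested on 0, 1 and 1 reads. Both are known as widely expressed phosphate carriers, and here their read totals were at least 1222 for Slc20a2 and 2 for Slc20a1.

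Slc26 anion carriers included 3 detected genes of 11, beside 25.9% of the other Slc genes and 36.5% of all protein-coding genes. Slc26a2, the sulfate carrier needed for proteoglycan sulfation, had 7.66, 7.49 and 7.85 FPKM, a mean of 7.66 ± 0.180. Slc26a10 had 1.93, 1.90 and 1.77 FPKM, and the chloride-oxalate-bicarbonate exchanger Slc26a6 had 1.64, 1.24 and 1.63 FPKM. Slc26a10 shares 715 of 4027 exon bases with B4galnt1, which was listed at 0. Slc26a7, known from intercalated cells, was under the limit with 0.757, 0.498 and 0.789 FPKM. Pendrin (Slc26a4) of intercalated cells, prestin (Slc26a5) of outer hair cells and Slc26a1, Slc26a3, Slc26a8, Slc26a9 and Slc26a11 were listed at 0.

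In order of mean FPKM, 10 of the 16 pairs of neighbours among the detected genes had aliquots that did not overlap. In deposited FPKM the top of the order was separated: Slc12a2, Atp1b2, Slc9a3r2, Atp1b3, Slc12a4, Slc8a1 and Slc24a5 each lay above the next. From Slc4a1ap through Slc4a8 and Slc9a3r1 to Slc20a2, neighbours overlapped, and Slc20a2 lay above Slc26a2 in every aliquot. Levels of different genes depend on length. The deposited values imply a length within 1 base of the mean or of the longest annotated transcript for 8 of the 17 genes. For the other 9 it may be a multiple of the one used, so that their read numbers are minimum values. Scaled to the longest transcript, 13 of the 17 fell more than 1.5 times below the deposited level, 15 of the 17 kept a level of at least 1 FPKM, and Slc26a6 was at 0.827 FPKM. The order changed on that scale: Slc8a1 (2.51 FPKM) came below Slc24a5 (7.32 FPKM), and Slc12a4 (9.66 FPKM) below Slc20a2 and Slc9a3r1 (both 11.2 FPKM). Where a length may be a multiple of the one used, its scaled level may be a multiple too.

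**Figure D3:**
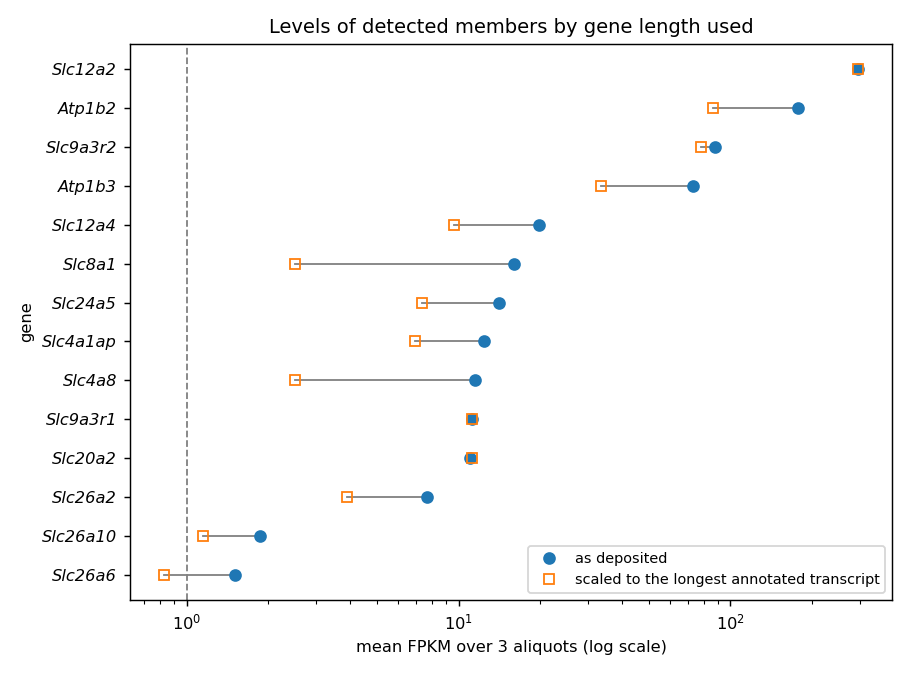
Mean FPKM of 14 of the 17 detected genes (log axis) as deposited (filled circles) and scaled to the longest annotated transcript (open squares), with a dashed line at 1 FPKM. Slc12a2 keeps its 294 FPKM, while Slc8a1 moves from 15.98 to 2.51 FPKM and Slc4a8 from 11.5 to 2.50 FPKM.

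Differences between aliquots were then set against counting error. A chi-square test of the reads against the library totals called 100 of 9120 genes of at least 30 reads (1.10%) at a Benjamini-Hochberg adjusted p below 0.05. It called 2 genes without aliquot 1, 99 without aliquot 2 and 68 without aliquot 3. Among the 22 members with enough reads it called 0 with all aliquots, and 0 with any of them left out. At an unadjusted p below 0.05 it found 1 of the 22 members, beside 11.5% of all genes tested. The lowest adjusted chi-square p of the members, by Benjamini-Hochberg over all genes tested, was 0.34. The 14 detected members of at least 5 FPKM had coefficients of variation of 1.10% for Slc12a2 to 10.8% for Slc9a3r1. Reads of amplified cDNA are not independent molecules, so this test covers counting error only. Where read numbers are minimum values, as for 9 detected members, the chi-square may be too low, so a missing call shows less there.

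Regulators and relatives of these carriers were read from lists outside the symbol rule. WNK kinases sense chloride and act through the kinases SPAK (Stk39) and OSR1 (Oxsr1), which switch NKCC1 on and the potassium-chloride cotransporters off. Of 12 genes of that pathway 9 were detected. By the same rule 36.5% of all protein-coding genes were detected, and neither this list nor those below were tested against that share. Sgk1, a kinase induced by corticosteroids, had 814 ± 20.2 FPKM and the SPAK cofactor Cab39 had 193 ± 3.27 FPKM. Wnk1 (85.1 ± 1.996 FPKM) and the ubiquitin ligase scaffold Cul3 (82.7 ± 0.902 FPKM) had aliquots that overlapped. Length bears on these lists as well: scaled to the longest transcript, 13 of their 20 detected genes fell more than 1.5 times below the deposited level. On that scale Sgk1 was at 359, Cab39 at 91.0, Cul3 at 27.8 and Wnk1 at 22.0 FPKM. Stk39 had 20.8, 20.2 and 19.6 FPKM and Oxsr1 had 3.61, 3.76 and 3.79 FPKM. The genes listed at 0 were Wnk4, Klhl3 and Nedd4l, known for their part in salt handling by the distal nephron.

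FXYD proteins are small membrane proteins that tune the sodium pump, and 2 of 7 were detected. Fxyd5 had 268, 273 and 281 FPKM, a mean of 274 ± 6.69 (84.0 FPKM at the longest transcript), and Fxyd1 had 4.85, 3.92 and 4.04 FPKM. Fxyd2, the gamma subunit of kidney tubules, was listed at 0 together with Fxyd3, Fxyd4, Fxyd6 and Fxyd7.

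Cofactors of the sodium-proton exchangers were detected for 4 of 7 genes. Chp1, a calcium-binding protein that binds exchangers of the plasma membrane, had 158, 167 and 165 FPKM (a mean of 80.2 FPKM at the longest transcript). The membrane-cytoskeleton linkers Msn and Rdx had 241 ± 2.69 and 229 ± 4.84 FPKM as deposited, in the reverse order at the longest transcript (152 and 184 FPKM), while ezrin (Ezr) had 1.72 ± 0.288 FPKM. Chp2, Tesc and Pdzk1 were listed at 0.

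Carbonic anhydrases, which make bicarbonate and protons from carbon dioxide, were detected for 3 of 16 genes. The mitochondrial Car5b had 29.7 ± 0.360 FPKM, and Car8 and Car11, relatives that lack catalytic activity, had 10.3 ± 0.443 and 4.56 ± 0.980 FPKM. The cytosolic Car2 and the membrane-bound Car4, Car12 and Car14 were listed at 0, with 9 others.

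Other routes of calcium and phosphate transport had 1 detected gene each. The plasma membrane calcium pump Atp2b1 had 60.1, 58.2 and 59.6 FPKM, a mean of 59.3 ± 0.964, above each aliquot of Slc8a1. Atp2b4 lay at the limit with 0.996, 0.973 and 1.11 FPKM, and the mitochondrial exchanger Slc8b1 had 0.135, 0 and 0.0563 FPKM. Xpr1, the phosphate exporter, had 34.3, 34.2 and 34.7 FPKM, above each aliquot of Slc20a2. The epithelial phosphate carriers Slc34a1, Slc34a2 and Slc34a3 were listed at 0. The same held for all 10 further relatives, among them the proton-potassium pump genes Atp12a, Atp4a and Atp4b.

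**Figure D4:**
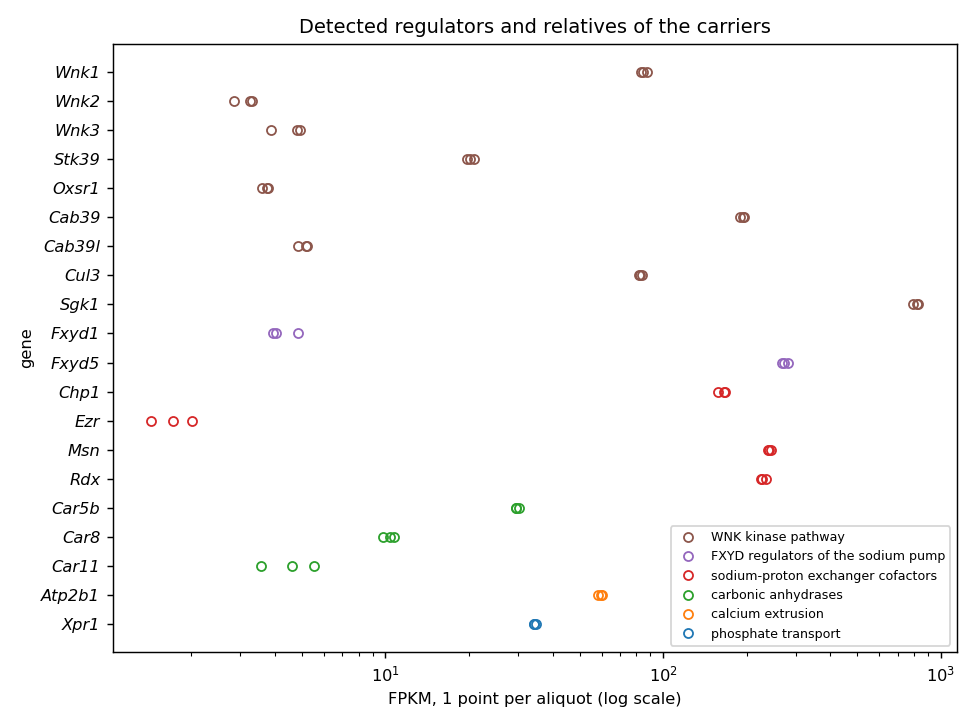
FPKM (log axis) of the 20 detected genes from lists of regulators and relatives, 1 point per aliquot and 1 colour per list. Sgk1 stands highest near 814 FPKM, and Fxyd5, Msn, Rdx, Cab39 and Chp1 lie between 158 and 281 FPKM.

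Promoter sequence was examined because the symbol rule did not use it. Broadly expressed genes commonly have promoters rich in CpG, a cytosine followed by a guanine. RefSeq promoters (GRCm38.p6) were at hand for 43 of the 60 genes, and the 250 bases before the start site nearest to the gene's annotated 5′ end were searched. The following 4 show that both kinds of promoter occur in detected genes and in genes listed at 0. Capitals mark each CpG. Atp1b3 (chr9:96364432-96364681, minus strand) and Slc24a5 (chr2:125067877-125068126, plus strand) were detected, and Atp1b1 (chr1:164458356-164458605, minus strand) and Slc12a3 (chr8:94328958-94329207, plus strand) were listed at 0.
Atp1b3: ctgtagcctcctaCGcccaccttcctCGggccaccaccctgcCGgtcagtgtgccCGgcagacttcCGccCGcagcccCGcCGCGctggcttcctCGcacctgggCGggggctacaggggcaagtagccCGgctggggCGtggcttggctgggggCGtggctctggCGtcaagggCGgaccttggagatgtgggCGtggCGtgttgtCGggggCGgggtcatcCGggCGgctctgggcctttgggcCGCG
Atp1b1: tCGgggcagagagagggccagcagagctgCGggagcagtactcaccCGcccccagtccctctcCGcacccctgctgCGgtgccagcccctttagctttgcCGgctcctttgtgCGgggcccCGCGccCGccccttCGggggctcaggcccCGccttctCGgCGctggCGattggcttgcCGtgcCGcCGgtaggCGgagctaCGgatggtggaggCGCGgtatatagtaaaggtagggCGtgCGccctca
Slc24a5: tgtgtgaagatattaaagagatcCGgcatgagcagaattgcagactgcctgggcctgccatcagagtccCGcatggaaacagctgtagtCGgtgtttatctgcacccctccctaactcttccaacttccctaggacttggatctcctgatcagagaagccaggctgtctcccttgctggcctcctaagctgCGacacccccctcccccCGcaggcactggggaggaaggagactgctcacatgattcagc
Slc12a3: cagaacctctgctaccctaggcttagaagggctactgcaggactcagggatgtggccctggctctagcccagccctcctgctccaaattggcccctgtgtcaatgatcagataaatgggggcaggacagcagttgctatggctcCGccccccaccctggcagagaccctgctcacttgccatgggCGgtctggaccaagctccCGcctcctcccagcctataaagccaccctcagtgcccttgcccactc

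Atp1b3 and Atp1b1 each had 24 CpG in this window, one gene at 72.8 FPKM and the other listed at 0, whereas Slc24a5 had 5 and Slc12a3 had 3. The 10 detected genes with a promoter had a median of 10.5 CpG (3 to 24), the 7 genes under the limit 18 (2 to 29) and the 26 genes listed at 0 had 6 (1 to 44). Slc12a2 and Atp1b2, the highest of the detected genes, had no promoter at hand, nor had Slc20a2 and Slc26a2. The median of the detected genes leaves them out. For 5 genes the nearest start site lay more than 1000 bases from the annotated 5′ end: Slc26a3 (47348 bases away, 1 CpG), Slc12a7 (30566 bases, 15 CpG), Slc4a5 (17547 bases, 6 CpG), Slc4a7 (16505 bases, 2 CpG) and Slc4a2 (1395 bases, 28 CpG). Those windows may not be the promoters of the annotated genes. Without them, by a limit chosen after seeing the data, the 5 genes left under the limit had a median of 18 (11 to 29) and the 23 listed at 0 had 6 (3 to 44). All 32851 promoters of the table had a median of 6. The GC box GGGCGG, which contains a CpG, was present on either strand in 5 of the 10, 4 of the 7 and 11 of the 26, and in 32.7% of all promoters. The TATA motif TATAAA was present on either strand in 1 of the 10, 1 of the 7 and 6 of the 26, and in 12.4% of all promoters, and 3 of the 5 distant windows held it. A match in these letters is a description and not a binding site.

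**Figure D5:**
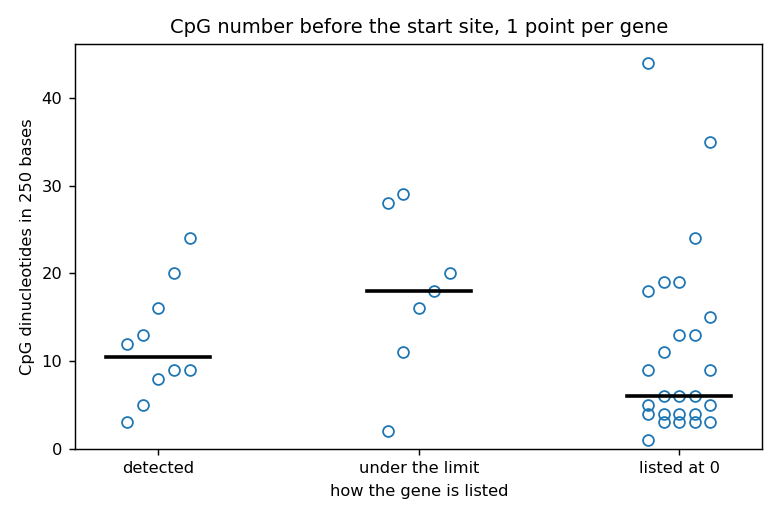
Number of CpG dinucleotides in the 250 bases before the start site (vertical axis), 1 point per gene with a RefSeq promoter, for 10 detected genes, 7 under the limit and 26 listed at 0, with a bar at each median. The groups overlap, and the highest number, 44 for Slc4a4, belongs to a gene listed at 0.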

How the data were processed

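Per the labels, 3 aliquots of 1 cDNA pool were sequenced, and 1 deposited table lists them. The submitters' processing notes name TopHat2 2.0.12, HTSeq 0.6.1 and the build GRCm38. The counting settings, strand use, annotation release and definition of length were not given in the sources used here. FPKM values, deposited by the authors, are reads per kilobase and per 1000000 reads of each library. Columns were mapped by sample title. Of 39304 rows, 39179 carry Ensembl identifiers, which were joined to GENCODE M21 (GRCm38) for symbols, coordinates and transcript lengths.

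FPKM values step in whole multiples of 1 read. Library totals came from these steps, and for each gene the smallest length that made all reads whole within 0.0001 was taken, or a multiple within 1 base of the mean or longest transcript (412 genes). Such a length existed for each of the 11142 genes above 0. When the totals were shifted, 0% of 992 control genes were solved within their longest transcript, against 93.8%. Recovered reads add up to 97.1% of each total. On simulated data of 1352 genes, built with the mean transcript length as the length, 100% were recovered up to a common factor. In the deposited values the implied length lay within 1 base of that mean for 47.3% of genes above 0. The simulation therefore cannot show how well the reads of the other genes were recovered. No count model was run.

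Detection means at least 1 FPKM in every aliquot. Log2 ratios used a pseudocount of 1 FPKM, for 17 listed gene pairs and with both members detected for 4, of which 3 are reported. Reads of genes with at least 30 were tested by chi-square with Benjamini-Hochberg adjustment at 0.05. On simulated reads of 9120 genes this recovered 75% of 1.5-fold and 92% of 2-fold changes in 1 aliquot. Named genes were members above 0, members listed at 0 by name, and from each other list the highest 4 detected and others for context, chosen after their values were seen. Members and lists were chosen with earlier results of these data known. Alternatives were other detection limits, pseudocounts, read filters, totals and lengths, and leaving out each aliquot. Promoter counts limited to start sites within 1000 bases of the annotated 5′ end were added after seeing the data. Python 3.11.15, pandas 2.3.3, NumPy 2.4.6 and SciPy 1.17.1 were used. Protein sequences were not used here. A few members that the rule names, and the ratios that need them, are left out of the text and figures but stay in the counts.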

Additional observations from a re-analysis of the deposited data

How the results depend on the processing

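The count of detected members (17) ranged from 14 with a limit of 5 FPKM to 19 with 0.5 FPKM or a mean of 1 FPKM, and was 17 to 18 with 1 aliquot left out and 15 at the longest transcript length. For pumps and carriers (14) it was 11, 16, 14 to 15 and 12. Length moved most levels: at the longest transcript length the median of detected members was 7.32 instead of 12.4 FPKM. The log2 ratio at that length was 1.35 for Atp1b2 to Atp1b3 and 4.79 for Slc12a2 to Slc12a4. Both ratios may be too high, because the lengths behind Atp1b3 and Slc12a4 may be multiples of those used. None of the 3 reported ratios changed its direction in these alternatives, in which further multiples of the lengths were not tried. With a limit of 5 FPKM, 5 WNK pathway genes and 1 FXYD gene were detected, and with 0.5 FPKM or a mean of 1 FPKM, 2 calcium extrusion genes. The chi-square test called 2 genes without aliquot 1 and 99 and 68 without aliquot 2 or 3, against 100 with all, and 0 members in each alternative run. The cause was not tested. Median CpG numbers were the same with start sites within 1000 bases. No paired analysis was possible because there is only 1 group. Low reads limit Slc26a6 and the genes under the limit.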
